A study of Homo sapiens with 4 samples.

Results

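NF-kB subunits and their inhibitors were followed through a time course of the ligand APRIL in HepG2, a hepatocyte-derived human cancer cell line. The members are 10 genes, taken by symbol: the subunit genes RELB, NFKB2, NFKB1, RELA and REL, the kinase gene MAP3K14, and the inhibitor genes NFKBIA, NFKBIB, NFKBIE and TNFAIP3. Every probe set with exactly 1 gene symbol that is a member was used, which gave 21 of the 41091 probe sets with 1 symbol, out of 54675 on the U133 Plus 2.0 array. They fall into a noncanonical arm of 3 genes read by 5 probe sets (RELB, NFKB2 and MAP3K14) and a canonical arm of 7 genes read by 16 probe sets.

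Total RNA was hybridised on 4 arrays, 1 for each time: untreated cells at 0 h, and cells after 2, 6 and 12 h with APRIL at 200 ng/ml, a soluble member of the tumour necrosis factor ligands. All cultures, the untreated one included, had been deprived of serum beforehand, for 24 h in the series' design text and overnight in the protocols. There were no replicates and no untreated array at 2, 6 or 12 h among the arrays used here, so time without serum and APRIL cannot be told apart, and no difference below carries a test or a p-value. In RNA from whole cultures, fewer cells expressing a gene and less RNA per cell also cannot be told apart.

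The deposited values are on a log scale, taken as log2, and each probe set is centred on its own median over the 4 arrays. A value of 0 is therefore that probe set's middle, no level is left, and levels cannot be compared between genes or checked against the markers of HepG2 cells. Values below are either a centred log2 value on 1 array or a log2 ratio between 2 arrays, and a gene's ratio is the median over its probe sets. Over all 19775 genes the robust SD of the log2 ratio to the 0 h array was 0.163 on the 2 h array, 0.196 on the 6 h array and 0.238 on the 12 h array, and the median gene lay at 0.016, 0.047 and 0.010. These spreads hold noise and any response together and do not measure variation between cultures. The 18 spike-in probe sets (the bio and cre controls of the array) lay at a median of -0.35 for 12 h over 0 h, with all 18 below 0. Every ratio at 12 h is therefore set against the middle of all genes, not against these controls. The amount of RNA in the cultures was not tested.

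NF-kB is a family of dimeric transcription factors. In the canonical arm, dimers such as RELA with the p50 product of NFKB1 are held in the cytoplasm by the IkB proteins (the products of NFKBIA, NFKBIB and NFKBIE) until the IkB kinase marks these for degradation. In the noncanonical arm, the kinase NIK, the product of MAP3K14, leads to the processing of the NFKB2 product p100 to p52, which enters the nucleus with RELB. Several of these genes, NFKBIA, NFKB2, RELB and TNFAIP3 among them, are themselves known targets of NF-kB in many cell types, and receptors of the tumour necrosis factor family can engage either arm. In the liver the pathway is known for its part in the acute-phase response and in protection of hepatocytes from cell death.

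Because binding of NF-kB to its own genes is part of this background, the promoter windows of the members were searched for the kB consensus (3 G, a purine, any 2 bases, 2 pyrimidines and 2 C, on both strands). The windows are RefSeq's, on GRCh38.p14, each 300 bases long with 250 before a start site and 50 from it on. Of the 10 members, 8 (all but RELB and NFKBIE) had a window, 13 windows in all, and 7 of the 13 windows, belonging to 6 genes, held a match. Over all genes, 11.3% of 35116 windows held a match. Overlapping matches on the same or opposite strands were kept, and a match is a run of letters, not a site shown to be bound.

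The matches before the start sites are shown with 10 flanking bases on each side, 5' to 3' in the direction of the gene, with every matching base in capitals. They lie at chr10:102394461-102394519 (+) for window 2 of NFKB2, chr10:102395519-102395548 (+) and chr10:102395674-102395703 (+) for window 3 of NFKB2, chr4:102501300-102501329 (+) for NFKB1, chr2:60881517-60881547 (+) for REL, chr14:35404811-35404840 (-) for NFKBIA, chr19:38899931-38899961 (+) for window 2 of NFKBIB and chr6:137867182-137867223 (+) for TNFAIP3.
NFKB2, window 2: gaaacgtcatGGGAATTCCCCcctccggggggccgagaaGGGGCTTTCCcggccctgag
NFKB2, window 3, match nearer the 5-prime end: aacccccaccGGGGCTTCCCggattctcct
NFKB2, window 3, match nearer the start site: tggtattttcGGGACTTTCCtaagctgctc
NFKB1: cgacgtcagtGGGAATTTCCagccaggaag
REL: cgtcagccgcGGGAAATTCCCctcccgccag
NFKBIA: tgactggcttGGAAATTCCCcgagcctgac
NFKBIB, window 2: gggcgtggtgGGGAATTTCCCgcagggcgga
TNFAIP3: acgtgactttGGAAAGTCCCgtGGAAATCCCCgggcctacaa

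A single form, GGGAATTTCC read on either strand, was shared by 4 canonical members (NFKB1, REL, NFKBIA and NFKBIB), and 0.145% of all windows held it. GGGACTTTCC was shared by NFKB2 and TNFAIP3, and 0.191% of all windows held it. A further match in window 2 of NFKBIB began at base 39, counted from 1 at the start site. The windows of MAP3K14 and RELA held no match, which says only that these letters are not in these windows.

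The wider context is given for a gene of each arm whose probe sets disagree below, as the 250 bases before the start site with the same capitals. For NFKB2 they are chr10:102394328-102394577 (+), and for NFKBIA chr14:35404750-35404999 (-).
NFKB2, window 2: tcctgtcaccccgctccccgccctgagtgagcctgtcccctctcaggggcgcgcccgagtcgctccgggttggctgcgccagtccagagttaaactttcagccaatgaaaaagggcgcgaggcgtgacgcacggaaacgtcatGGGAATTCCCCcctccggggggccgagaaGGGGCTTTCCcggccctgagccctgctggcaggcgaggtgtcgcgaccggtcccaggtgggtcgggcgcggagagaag
NFKBIA: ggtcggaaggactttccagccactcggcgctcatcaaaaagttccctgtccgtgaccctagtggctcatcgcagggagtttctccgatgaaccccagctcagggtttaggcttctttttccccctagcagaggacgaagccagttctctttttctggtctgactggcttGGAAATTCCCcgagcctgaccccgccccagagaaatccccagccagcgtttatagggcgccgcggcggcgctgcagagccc

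**Figure D1:**
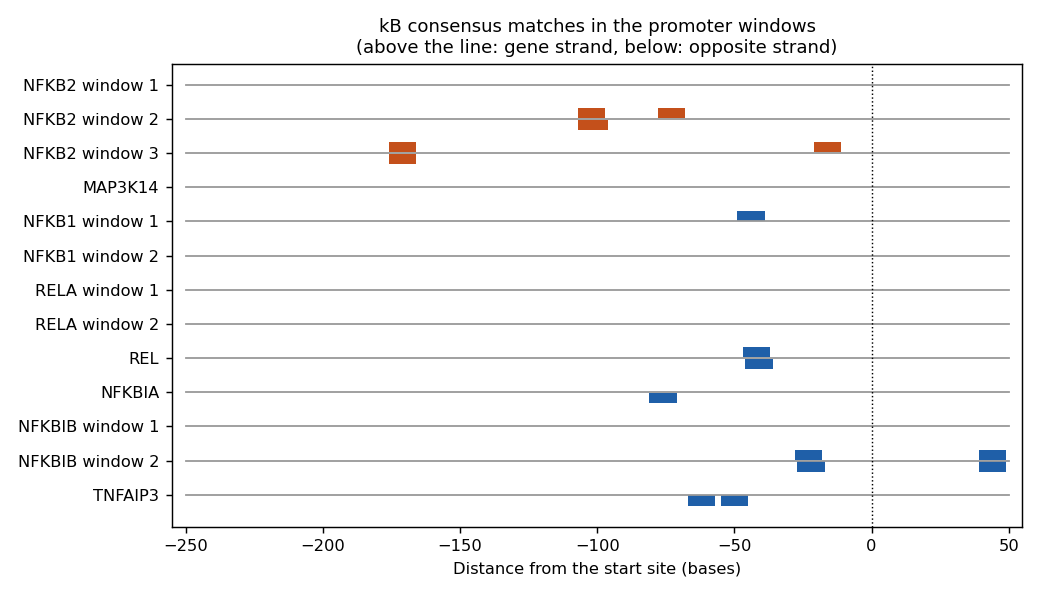
Position of kB consensus matches in the 13 promoter windows of 8 members, by distance from the start site in bases, with the gene strand above each line and the opposite strand below (orange, noncanonical; blue, canonical). All matches but 1 place lie before the start site, and their first bases run from -176 to -21, both in window 3 of NFKB2.

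In the noncanonical arm, RELB stood out. Its single probe set had centred log2 values of -0.18 at 0 h, then 0.18 at 2 h, -0.40 at 6 h and 1.02 at 12 h. The 12 h array was by far the highest and the 6 h array the lowest, with 0 h and 2 h between them. RELB encodes the subunit that pairs with p52. Its log2 ratio was 0.37 at 2 h, -0.22 at 6 h and 1.20 (2.30-fold) at 12 h, all against 0 h. At 12 h it was higher than all but 0.485% of the 19775 genes, at 2 h all but 2.36%, and at 6 h 88.7% of genes lay above it. The step between the last times, 12 h over 6 h, was larger still at 1.42 (2.68-fold).

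MAP3K14, the gene of NIK, also rests on 1 probe set. Its centred log2 values were -0.34 at 0 h, then 0.017 at 2 h, -0.017 at 6 h and 0.31 at 12 h. The 3 treated arrays were all above the untreated one, with 2 h and 6 h nearly equal. Against 0 h its log2 ratio was 0.36 at 2 h, 0.32 at 6 h and 0.65 (1.57-fold) at 12 h. NIK is known to be controlled mainly by degradation of the protein, which an array does not read.

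NFKB2, which encodes p100 and so the p52 subunit, was read by 3 probe sets. The first had centred log2 values of -0.13 at 0 h, then 0.12 at 2 h, -0.12 at 6 h and 0.24 at 12 h, and the second had -0.38, 0.17, -0.17 and 0.18 at the same times. Both were lowest at 0 h and highest at 12 h. The third varied little, with 0.018 at 0 h, then 0.11 at 2 h, -0.059 at 6 h and -0.018 at 12 h. The gene's log2 ratio against 0 h was 0.25 at 2 h (SD 0.231 over 3 probe sets), 0.0086 at 6 h (SD 0.152) and 0.37 at 12 h (SD 0.305). All 3 probe sets were above 0 at 2 h, and at 12 h the third lay at -0.036.

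**Figure D2:**
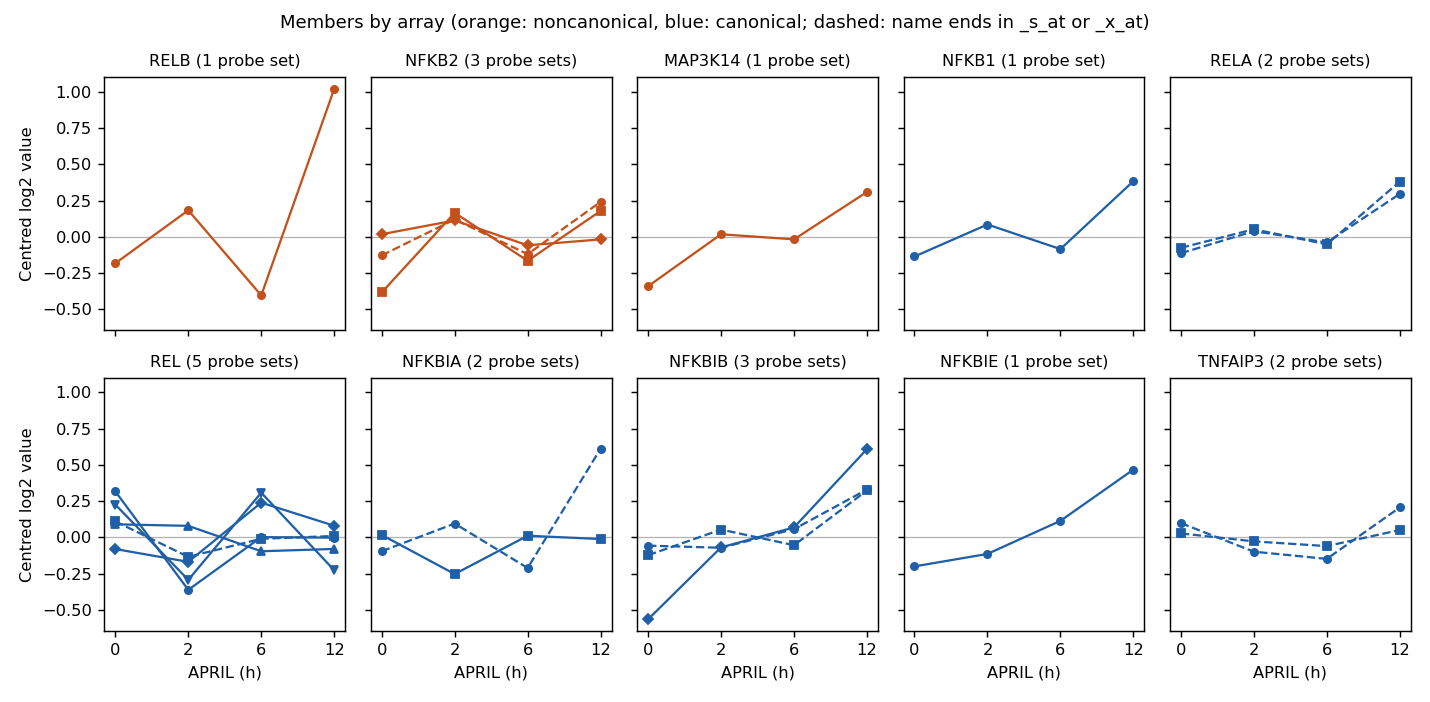
Centred log2 value of each of the 21 member probe sets (lines) on the 4 arrays, by hours with APRIL, with a panel for each gene (orange, noncanonical; blue, canonical; dashed, probe sets whose names end in _s_at or _x_at, which can match several transcripts). RELB reaches 1.02 at 12 h, the highest value among the members, and REL has its 5 lines in different orders.

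Among the canonical subunits, NFKB1 and RELA were lowest at 0 h and highest at 12 h on every probe set, and REL was highest at 0 h or 6 h. NFKB1, which encodes p105 and its product p50, had centred log2 values of -0.14 at 0 h, then 0.085 at 2 h, -0.085 at 6 h and 0.38 at 12 h on 1 probe set. The 12 h array was the highest and the 0 h array the lowest. Its log2 ratio against 0 h was 0.22 at 2 h, 0.051 at 6 h and 0.52 (1.43-fold) at 12 h.

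RELA encodes p65, the main activating subunit of the canonical arm. Its probe sets had centred log2 values of -0.11 and -0.076 at 0 h, 0.039 and 0.052 at 2 h, -0.039 and -0.052 at 6 h, and 0.30 and 0.38 at 12 h. They were close to each other throughout, and at 12 h both stood above all their other values. RELA's log2 ratio against 0 h was 0.14 at 2 h, 0.049 at 6 h and 0.43 (SD 0.0332 over 2 probe sets) at 12 h. Both probe sets are of the kind that can match several transcripts.

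REL, the gene of c-Rel, a subunit best known from lymphocytes, was read by 5 probe sets that did not follow a common course. The highest array was 0 h for 3 of them and 6 h for the other two. At 0 h the centred log2 values were between -0.080 and 0.32, at 2 h between -0.36 and 0.080, at 6 h between -0.096 and 0.31 and at 12 h between -0.23 and 0.080. The 2 h array was the lowest for 4 of the 5. REL's log2 ratio against 0 h was -0.24 at 2 h (all 5 probe sets below 0, SD 0.284), -0.12 at 6 h (SD 0.249) and -0.17 at 12 h (SD 0.232, probe sets from -0.45 to 0.16). It was the only member below 0 at 12 h, and with arrays centred on the spike-in probe sets it lay at 0.18.

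The IkB genes were higher at 12 h, with probe sets of NFKBIA in conflict. NFKBIA encodes IkB-alpha, the inhibitor that is degraded and resynthesised fastest. Its first probe set had centred log2 values of -0.095 at 0 h, then 0.095 at 2 h, -0.21 at 6 h and 0.61 at 12 h. The order of the arrays, with 12 h highest and 6 h lowest, is that of RELB. The second had 0.017 at 0 h, then -0.25 at 2 h, 0.011 at 6 h and -0.011 at 12 h, so that only its 2 h array stood apart. For 12 h over 0 h the log2 ratio was 0.71 on the first and -0.028 on the second, and their median of 0.34 (SD 0.519) describes neither.

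NFKBIB encodes IkB-beta, which is degraded more slowly. Its 3 probe sets had centred log2 values of -0.057, -0.12 and -0.56 at 0 h, -0.071, 0.054 and -0.069 at 2 h, 0.057, -0.054 and 0.069 at 6 h, and 0.33, 0.32 and 0.61 at 12 h. All were highest at 12 h. The third was the lowest of them at 0 h and the highest at 12 h, with a log2 ratio of 1.17 for 12 h over 0 h, against 0.39 and 0.45 on the others, whose names end in _x_at. The gene's log2 ratio against 0 h was 0.18 at 2 h (SD 0.258), 0.11 at 6 h (SD 0.314) and 0.45 at 12 h (SD 0.438).

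NFKBIE, the gene of IkB-epsilon, was higher at each successive time. Its centred log2 values were -0.20 at 0 h, then -0.11 at 2 h, 0.11 at 6 h and 0.47 at 12 h on 1 probe set. The log2 ratio against 0 h was 0.086 at 2 h, 0.31 at 6 h and 0.67 (1.59-fold) at 12 h, where 3.24% of genes lay higher.

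TNFAIP3 encodes A20, a ubiquitin-editing enzyme that shuts off signalling upstream of the IkB kinase. Its probe sets had centred log2 values of 0.098 and 0.028 at 0 h, -0.098 and -0.028 at 2 h, -0.15 and -0.060 at 6 h, and 0.21 and 0.051 at 12 h. The arrays lay close together, with 12 h highest and 6 h lowest on both. Its log2 ratio against 0 h was -0.13 at 2 h, -0.17 at 6 h and 0.066 (SD 0.0597 over 2 probe sets) at 12 h. At 12 h it sat in the middle of all genes, with 40.7% above it.

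**Figure D3:**
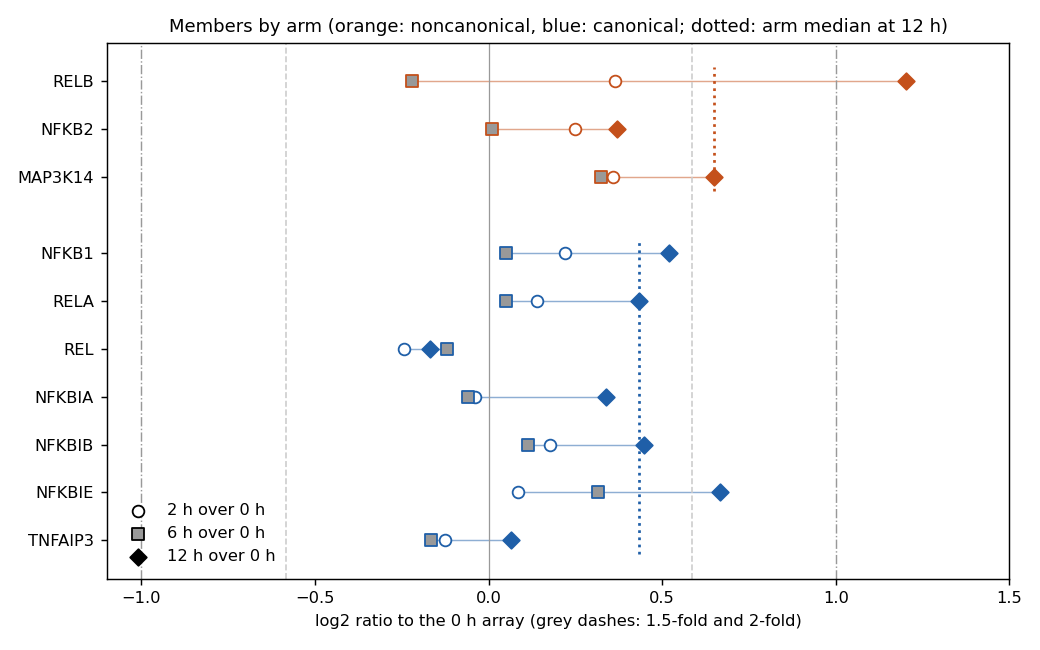
Log2 ratio of each member to the 0 h array at 2, 6 and 12 h (circles, squares and diamonds), noncanonical arm above and canonical arm below, with the median of each arm at 12 h as a dotted line (0.65 and 0.43). RELB spans from -0.22 to 1.20. The 6 h squares lie to the left of the 2 h circles in all members of both arms but REL and NFKBIE.

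Counted over the members, nothing passed 1.5-fold (a log2 ratio of 0.585) in either direction at 2 h or at 6 h. Of all genes, 0.308% were past it higher and 0.344% lower at 2 h, and 1.15% and 1.64% at 6 h. At 2 h 7 of 10 members were above 0, beside 53.5% of all genes, and at 6 h 6 of 10, beside 59.6%, of which NFKB1, RELA and NFKB2 lay below 0 with arrays centred on the spike-in probe sets. At 12 h, 3 of 10 members were past 1.5-fold higher (RELB, NFKBIE and MAP3K14) and none lower, beside 4.46% and 3.70% of all genes. With the mean of the other 3 arrays as reference RELB alone was past it, beside 3.08% of all genes, with NFKBIE at 0.53 and MAP3K14 at 0.42. By the probe set of widest range 5 members were past it higher, beside 9.61% of all genes. By the median over probe sets and against the 0 h array, RELB alone was past 2-fold higher, beside 0.946% of all genes. At 12 h 9 of 10 members were above 0, beside 51.7% of all genes, and the members' median was 0.44, against 0.010 for all genes. With arrays centred on the spike-in probe sets the median of all genes was 0.36 for 12 h over 0 h, and 8 of 10 members were past 1.5-fold higher, beside 19.3% of all genes, with 1.16% lower. The split of all genes past 1.5-fold moved with this centring in the other comparisons too, to 0.703% higher and 2.49% lower at 6 h against 0 h. In the step to 6 h it was 1.01% higher and 2.86% lower, and in the step to 12 h it was 23.0% higher and 0.850% lower.

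**Figure D4:**
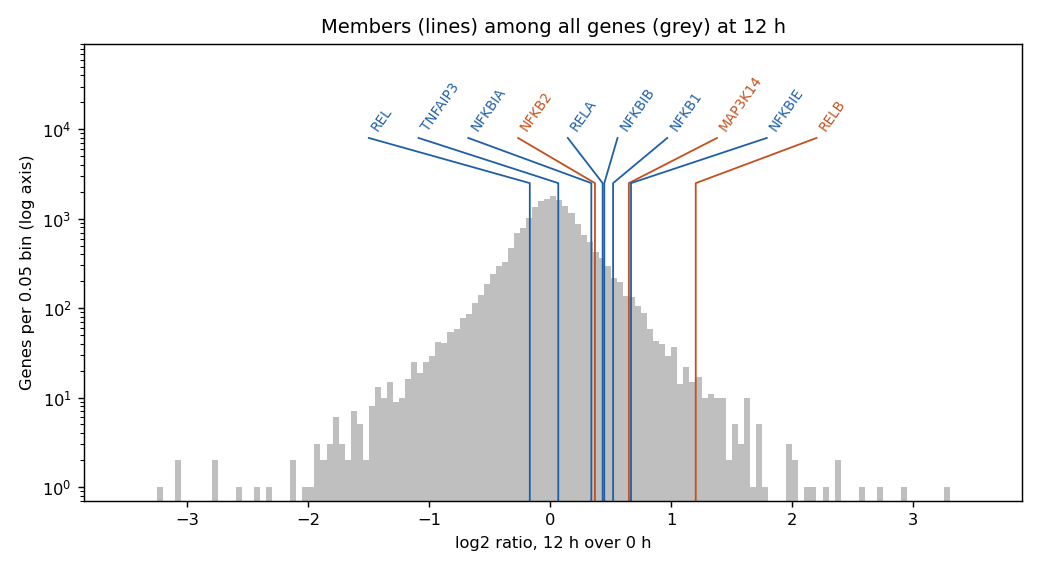
Histogram of the log2 ratio, 12 h over 0 h, of all 19775 genes (grey, genes per bin on a log axis), with the 10 members as lines (orange, noncanonical; blue, canonical). RELB at 1.20 lies in the upper tail, 7 members lie between 0.34 and 0.67, and TNFAIP3 and REL lie near the centre.

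Of the 21 member probe sets, 14 were highest on the 12 h array, beside 30.0% of all probe sets with 1 symbol, and 9 were both lowest at 0 h and highest at 12 h, beside 13.1%. Probe sets of a gene are not separate members. The 14 belonged to 9 of the genes, all but REL.

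The noncanonical median was above the canonical one at 2 h and 12 h, and the medians were close at 6 h. The noncanonical arm had a median log2 ratio of 0.36 and the canonical arm 0.086 for 2 h over 0 h, a difference of 0.27. With 3 genes the noncanonical median is the value of 1 gene, MAP3K14 at 2 h and 12 h and NFKB2 at 6 h. The canonical median at 2 h is the value of NFKBIE, read by 1 probe set. The 3 noncanonical genes lay from 0.25 to 0.37 at 2 h, and the highest canonical gene was NFKB1 at 0.22, 0.027 below NFKB2, where 10.5% of all genes lay above it. This order depended on the probe sets read: by its probe set of widest range, or without probe sets that can match several transcripts, NFKBIB lay at 0.50, above RELB and MAP3K14. For 6 h over 0 h the medians were 0.0086 for the noncanonical arm and 0.049 for the canonical arm, with wide overlap, and with spike-in centring they were -0.071 and -0.031. For 12 h over 0 h they were 0.65 and 0.43, a difference of 0.22, which lies under the robust SD of all genes at 12 h, 0.238. The arms overlapped, with NFKB2 at 0.37 below NFKBIE, NFKB1, NFKBIB and RELA.

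Paired by their kind of protein, the Rel subunits differed more between arms than the precursors. RELB had a log2 ratio of 1.20 and RELA 0.43 for 12 h over 0 h, a difference of 0.77. NFKB2 had 0.37 and NFKB1 0.52, a difference of -0.15, which lies within the SD between the NFKB2 probe sets. The larger noncanonical median at 12 h therefore rests on RELB and MAP3K14, which are read by 1 probe set each.

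Between 2 h and 6 h the noncanonical genes were lower at the later time. The log2 ratio of 6 h over 2 h was -0.59 (1.501-fold lower) for RELB, -0.24 for NFKB2 and -0.035 for MAP3K14, and all 5 noncanonical probe sets were below 0. Over both arms 7 of 10 members were below 0, beside 42.8% of all genes. The canonical arm had a median of -0.021, with 3 genes above and 4 below 0. RELB was the 1 member past 1.5-fold lower in this step, beside 2.07% of all genes, and none was past it higher, beside 1.57%. In the last step, 12 h over 6 h, 9 of 10 members were above 0 (noncanonical median 0.34, canonical median 0.38), beside 45.1% of all genes, and RELB alone was past 1.5-fold higher, beside 3.51%, and past 2-fold, beside 0.799%. None was past 1.5-fold lower, beside 3.40%. The course of higher at 2 h, lower at 6 h than at 2 h and higher again at 12 h was found in 5 of 10 members (RELB, NFKB2, MAP3K14, NFKB1 and RELA), beside 18.5% of all genes. The step from 2 h to 6 h was small for MAP3K14 (-0.035), NFKB1 (-0.17) and RELA (-0.091), within the robust SD of all genes in that step, 0.217. For 2 h over 0 h these genes lay at 0.36, 0.22 and 0.14.

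The genes with courses nearest to a member were found by the distance over the 3 log2 ratios against 0 h, among all genes outside the members. Nearest to RELB was UBASH3B, a phosphatase of the Sts family, with 0.36 at 2 h, -0.18 at 6 h and 1.21 at 12 h over 5 probe sets (distance 0.0446). INHBE, an inhibin subunit made in the liver, followed with 0.33, -0.40 and 1.24 (distance 0.184), and then CDC42EP5 (distance 0.212). Nearest to NFKB2 were H1-1, SHROOM4 and RHBDD2 (distances 0.0240, 0.0282 and 0.0313), and nearest to NFKBIA were STX6, CYSTM1 and CDK5R1 (0.0193, 0.0214 and 0.0217). The last 2 sets lie where many genes have small ratios. The set of NFKBIA is near the median of its probe sets, which describes neither of them (0.71 and -0.028 for 12 h over 0 h).

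Around the members, the receptors that signal to NIK were read by 8 genes, of which TNFRSF12A alone was past 1.5-fold, at 12 h, beside the 4.46% of all genes past it higher. TNFRSF12A encodes Fn14, the receptor of the ligand TWEAK, and had log2 ratios of 0.39 at 2 h, -0.039 at 6 h and 1.42 (2.67-fold) at 12 h on 1 probe set, the same order of arrays as RELB. The receptors of APRIL lay near 0 at 12 h, with TNFRSF13B (TACI) at -0.094 and TNFRSF17 (BCMA) at 0.12. None of the 7 genes listed around NIK in the noncanonical arm and read here passed 1.5-fold at any time. CHUK, at 0.077 at 12 h, is counted in this list and also among the canonical kinases and adaptors below. All 7 were above 0 at 12 h, beside 51.7% of all genes, with a median of 0.14 against 0.010 for all genes. The largest were TRAF3, an adaptor that directs NIK to degradation, at 0.48 (SD 0.532 over 2 probe sets) and BTRC, a ubiquitin ligase subunit, at 0.29 (SD 0.512 over 5).

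Of 15 kinases and adaptors of the canonical arm, 2 were past 1.5-fold higher at 12 h and none lower, beside 4.46% and 3.70% of all genes, and the list's median was 0.25. These were IKBKB, the catalytic subunit of the IkB kinase that marks the IkB proteins, at 0.69 (SD 0.333 over 3 probe sets), and RBCK1 (HOIL-1), part of the linear ubiquitin ligase, at 0.69 (SD 0.207 over 3). TBK1, a kinase related to the IkB kinase, was past 1.5-fold higher at 6 h alone, at 0.66, beside 1.15% of all genes. It was read by 1 probe set and lay at 0.15 at 12 h. Of 14 other inhibitors and nuclear IkB proteins, TNIP2, an A20-binding protein, was at 0.76 (SD 0.0782 over 3 probe sets) at 12 h and COMMD1, which promotes turnover of RELA, at -0.64, the 1 gene past 1.5-fold in each direction, beside the same shares. NKIRAS1, a small GTPase that binds IkB proteins, was at 0.61 at 6 h, beside 1.15% of all genes past 1.5-fold higher. On its 1 probe set it lay at 0.57 at 12 h. The list's median at 12 h was 0.083.

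Of 20 canonical target genes none passed 1.5-fold at 2 h or 6 h, and 6 were past it higher at 12 h, beside the 4.46% of all genes, with a list median of 0.14. The chemokine gene CXCL8 had a log2 ratio of 2.56 (SD 0.227 over 2 probe sets), the stress-response gene IER3 1.98, the urokinase gene PLAU 1.51 (SD 0.316 over 2), the adhesion molecule gene ICAM1 1.31 (SD 0.549 over 3), LCN2 (lipocalin) 1.21 and the chemokine gene CCL20 0.59. ICAM1 lay at 0.40 at 2 h and 0.053 at 6 h. Of 7 genes known as noncanonical targets in lymphoid organs none passed 1.5-fold at any time, with a median of -0.021 at 12 h, where MADCAM1 was at 0.58 and CXCL13 at -0.34.

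**Figure D5:**
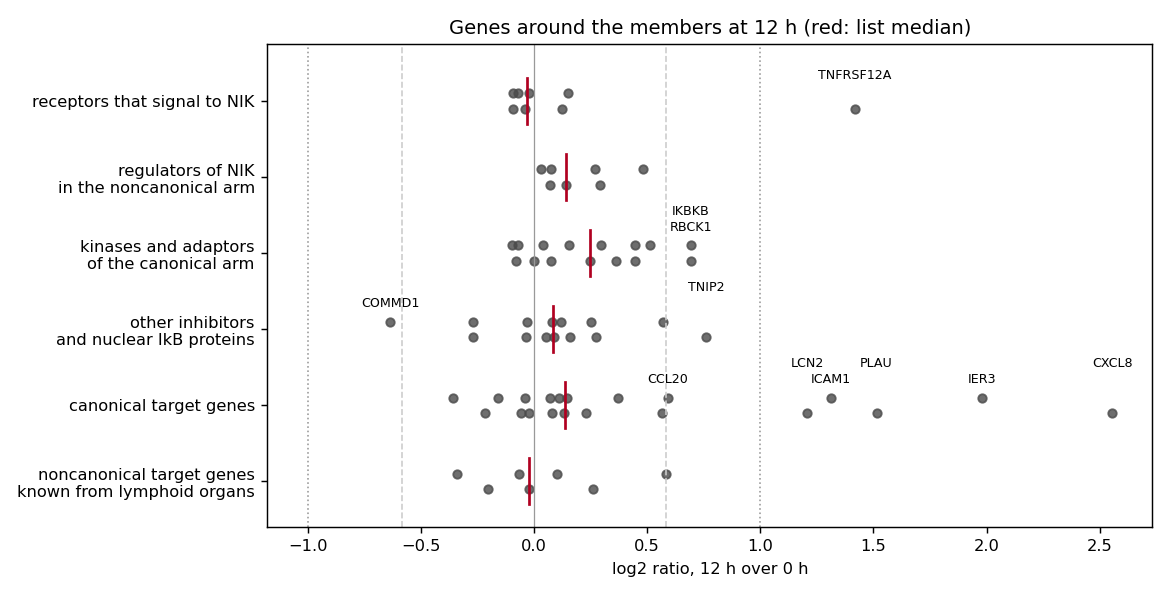
Log2 ratio, 12 h over 0 h, of the genes of 6 lists around the members (points; red bar, list median; dashed and dotted lines, 1.5-fold and 2-fold). Most genes lie near 0, and CXCL8, IER3, PLAU, TNFRSF12A, ICAM1 and LCN2 lie past 2-fold.

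Markers of other cells (immune, fibroblast and endothelial) were read for 14 genes, of which 1 passed 1.5-fold at any time, at 12 h, beside 4.46% of all genes past it higher. This was PDGFRB, a fibroblast and pericyte receptor, with 0.25 at 2 h, -0.49 at 6 h and 0.89 at 12 h on 1 probe set, against a list median of 0.034 at 12 h. Its part in the course of RELB was not tested. Of 10 HepG2 markers, APOB alone passed 1.5-fold, at -0.64 at 2 h, -1.60 at 6 h and -1.08 at 12 h, with its probe sets far apart (SD 1.40 over 2 at 12 h), beside 0.344%, 1.64% and 3.70% of all genes past it lower at these times.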

How the data were processed

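Per the submitters' processing notes the authors made the deposited log2 values with RMA (no version given), which corrects background, equalises the arrays and summarises probes. The median of each of the 54675 probe sets over the 4 arrays was 0 within 1e-06. The software that centred them, the log base and the direction are not given in the sources used here. The scale was read as base 2, that of RMA, with higher values as more transcript.

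Symbols came from the platform annotation (41091 probe sets with 1 symbol, 1801 with several, 11721 with none and 62 controls). For 41037 of the 41091 the gene identifier was found in RefSeq's GRCh38.p14, and their symbols already matched it. The others kept the symbol of the annotation. BCL3 and CD68, whose probe sets have several symbols, and RIPK1, TRAF2, BIRC3, HNF4A and GLYCAM1 of the lists are not analysed here.

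Log2 ratios between arrays were computed per probe set with pandas 2.3.3 and numpy 2.4.6, and a gene took the median over its probe sets in each comparison. With 1 array per time no test was possible, and 1.5-fold and 2-fold were used as descriptive thresholds. The computation was tested on simulated data. All members are described. From each list around them, the genes at or past 1.5-fold at any time were named, or otherwise the 2 with the largest ratio in size at 12 h, and 3 genes nearest in course were named for RELB, NFKB2 and NFKBIA. The members, lists and alternatives were chosen with earlier results of these data known, and the receptors TNFRSF13B and TNFRSF17 were named for their place in the study. With so few arrays, precision is limited.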

Additional observations from a re-analysis of the deposited data

How the results depend on the processing

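No paired analysis was possible because each time has 1 array. A shift was called small when under 0.163, the robust SD of all genes at 2 h. Of 211 summary values (arm medians, their differences and counts of members) under the alternatives, 183 stayed within this or within 1.5 times the count. Of 270 single-gene values 218 stayed within it. Many of these values could hardly move, so the tallies do not measure robustness. NFKB1, NFKBIE, RELB and MAP3K14 have 1 probe set each, which choices between probe sets leave unchanged. Centring shifts every ratio of a comparison alike and cannot change a difference between arms. Median centring left all 50 single-gene values within the limit. Of the single-gene values 21 turned their sign, 10 of them with the mean of the other 3 arrays as reference and 5 with spike-in centring, and none of the 21 had been past 1.5-fold.

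Spike-in centring raised the 12 h over 0 h medians to 1.002 (noncanonical) and 0.79 (canonical), and those of 12 h over 6 h to 0.78 and 0.81. Under it 8 members were past 1.5-fold higher at 12 h against 0 h, beside 19.3% of all genes. RELB (1.55), NFKBIE (1.02) and MAP3K14 (1.002) were past 2-fold, and the share of all genes past 2-fold was not computed under any alternative. Against 6 h 9 members were past 1.5-fold higher, beside 23.0%. This follows from its construction, since every ratio of a comparison moves alike.

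With the mean of the other 3 arrays as reference, which by construction holds the high 12 h array, the arm medians were 0.038 (noncanonical) and -0.11 (canonical) at 2 h, and -0.14 (canonical) at 6 h. At 12 h the noncanonical median was 0.42 and the difference between arms 0.053. At that time 1 member was past 1.5-fold higher, beside 3.08% of all genes, and at 6 h 1 was past it lower, beside 1.34%.

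Reading each gene by its most variable probe set, 5 members were past 1.5-fold higher at 12 h, beside 9.61% of all genes. Of these, 2 were past 2-fold. At 6 h 1 member was past 1.5-fold higher, with the noncanonical median at 0.22 (difference 0.19). At 2 h 1 was past 1.5-fold lower, beside 1.28% of all genes. For 12 h over 6 h 2 were past 1.5-fold higher, beside 6.73%. In each of these comparisons, 6 h included, this reading also raised the share of all genes past 1.5-fold. The added calls are therefore not a result about the members alone. Without probe sets that can match several transcripts, RELA and TNFAIP3 had no value, and NFKBIA lay at -0.028 at 12 h. Under this setting RELB (1.20) and NFKBIB (1.17) were past 2-fold higher at 12 h. At 6 h 1 member was past 1.5-fold higher, beside 1.39% of all genes. For 6 h over 2 h the canonical median was 0.23 and the difference between arms -0.48. With DNA-binding subunits alone, the noncanonical median was -0.41 in the step to 6 h and 0.88 in the step to 12 h. The difference between arms was 0.50 in that last step. The noncanonical arm is then RELB and NFKB2 only, which lay at 1.42 and 0.34 in that step. This setting changes the genes that are read, and the other choices here change the probe sets.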
